A study of Homo sapiens with 8 samples.

Results

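The genes of the proteasome were taken as the genes of the count tables whose symbols consist of PSM, a letter from A to G and a number. This rule uses names only, and it picked 48 of 28265 genes. They encode the 20S core (PSMA and PSMB genes), the 19S regulatory particle (PSMC and PSMD genes), the activators PSME1 to PSME4, the inhibitor PSMF1 and the core assembly chaperones PSMG1 to PSMG4.

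The study measured RNA in IMR90, a human lung fibroblast line, by factory RNA-Seq, an approach meant to capture nascent RNA. Per the labels, 2 libraries came from young cells, called the control here, 2 from cells treated for 3 days with ICM (inflachromene, a small molecule inhibitor used in the study to induce senescence), 2 from cells treated for 6 days, and 2 carried the name MetaICM, which neither the labels nor the text of the study explains. The labels describe poly(A) selection, and the counts are of read pairs on exons, so levels below are exonic RNA levels. The labels give no dose and no other agent for any group. The study's captions state an ICM dose for its nascent RNA at 3 and 6 days. Nothing states whether the libraries of a group came from separate cultures. The p-values therefore measure the spread between these libraries, which may be technical.

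The proteasome is the protease that breaks down most ubiquitin-tagged proteins in the cytoplasm and nucleus. Its core is a stack of rings, outer rings of alpha subunits that gate the entrance and inner rings of beta subunits of which some carry the catalytic sites, and the 19S particle recognises ubiquitin, removes it and unfolds the substrate with a ring of ATPases. In cells exposed to interferon, alternative catalytic subunits replace the usual ones to form the immunoproteasome, which favours peptides suited to antigen presentation. In many cell types, the transcription factor NRF1, encoded by NFE2L1, raises the genes of the whole particle when proteasome activity is short, and it binds antioxidant response elements.

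Promoter sequences were examined for 3 short motifs that bear on these regulators, chosen after the expression values had been seen. They were the antioxidant response element core TGACNNNGC, the CCAAT box CCAAT and the interferon-stimulated response element core, GAAA followed by any NN and by GAAA again, each searched on both strands. RefSeq promoters on GRCh38.p14 were at hand for 42 of 48 members, with no entry for PSMA7, PSMB1, PSMB6, PSMB7, PSMD4 and PSMG3. In the 250 bases before the start, TGACNNNGC stood in 11 members (26.2%, against 11.03% of all 27305 promoters), CCAAT in 17 (40.5%, against 33.04% of all) and the interferon motif in 5 (11.9%, against 3.07% of all). No match of one motif overlapped a match of another in these members. With the 50 bases after the start included, which was the window searched first, the counts were 13, 18 and 7 of 42 members, against 13.6%, 35.7% and 3.65% of all promoters. The members with the interferon motif before the start were PSMA4, PSMB4, PSMB10, PSME2 and PSMG4, and the longer window added PSMB8 and PSME1. Those with TGACNNNGC before the start were PSMB3, PSMB9, PSMD3, PSMD5, PSMD9, PSMD12, PSME1, PSME2, PSME4, PSMG1 and PSMG2. Of these 11, PSMB3 and PSMD3 were called higher at 3 or 6 days of ICM by the rule given below, as were 18 of all 46 members tested. Over all genes tested, 8.85% were called higher at 3 days and 13.3% at 6 days. PSMD5 passed only the adjusted p, at 6 days. A link between motif and call was not tested.

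A pair of promoters for each of the antioxidant and interferon motifs shows what such a match looks like in a member called higher in at least one comparison below. Each run gives the 120 bases before the start on the gene's strand, 5′ to 3′, with the match in capitals. PSMB3 lies at chr17:38752621-38752740 (plus strand), PSMD3 at chr17:39980687-39980806 (plus strand), PSMB10 at chr16:67936851-67936970 (minus strand) and PSME2 at chr14:24146611-24146730 (minus strand), all on GRCh38.p14. A match is a run of letters and does not show that a factor binds there.
PSMB3: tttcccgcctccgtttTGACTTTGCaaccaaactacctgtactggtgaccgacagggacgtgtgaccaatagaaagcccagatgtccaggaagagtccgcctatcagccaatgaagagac
PSMD3: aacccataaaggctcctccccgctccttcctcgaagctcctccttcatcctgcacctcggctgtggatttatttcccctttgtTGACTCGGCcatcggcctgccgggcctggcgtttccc
PSMB10: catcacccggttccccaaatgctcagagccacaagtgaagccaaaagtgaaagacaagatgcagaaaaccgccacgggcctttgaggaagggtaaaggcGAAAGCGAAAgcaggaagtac
PSME2: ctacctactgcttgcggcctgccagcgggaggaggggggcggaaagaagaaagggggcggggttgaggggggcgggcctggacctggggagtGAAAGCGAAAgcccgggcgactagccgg

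The 8 libraries held 12095123 to 23166405 counted read pairs. Within each group, the counts of the libraries differed by more than sampling noise (chi-square per degree of freedom from 5.44 to 22.7), and most so in control, where the absolute log2 difference between libraries had a median of 0.221. Fibroblast genes were abundant in every library, and COL1A1 stood at 8085 and 8812 CPM in control and 1889.9 and 1876 CPM after 6 days of ICM. The summed level of 8 fibroblast markers was 38391 and 36744 CPM in control, 21705 and 20311 CPM after 3 days, 15239.6 and 14987 CPM after 6 days and 33993 and 34131 CPM in MetaICM. The 4 epithelial, 3 endothelial and 5 leukocyte markers summed to at most 7.88, 4.94 and 2.36 CPM in any library. Of the 8 fibroblast markers, 5 were called lower at 6 days, and their part in the results below was not tested. Bulk values cannot tell a change in the number of cells of a kind from a change in RNA per cell.

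Of the 48 members, 46 had enough reads to be tested in all 5 comparisons. PSMA8, a testis form of an alpha subunit, had 0 or 1 counts per library, and PSMB11, the catalytic subunit of the thymus proteasome, had 0 to 2. In a gene tested, the call "higher" or "lower" below means an adjusted p under 0.05 and an absolute log2FC over 0.6, by the quasi-likelihood test of edgeR after Benjamini-Hochberg adjustment. Levels are given as CPM, the count scaled to library depth with TMM factors over all libraries.

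The proteasome genes were, as a group, higher in the ICM libraries. Summed over the 48 members, the level was 2919 and 2704 CPM in control, 3714 and 3611 CPM at 3 days, 3759.7 and 3897 CPM at 6 days and 3283 and 3371 CPM in MetaICM. Every ICM and MetaICM library lay above both control libraries, and the MetaICM libraries lay between control and ICM. After 3 days of ICM, 11 of 46 members were upregulated and 0 downregulated, where 8.85% of all 15692 genes tested rose and 13.2% fell. After 6 days, 15 of 46 rose and 0 fell, against 13.3% and 17.2% of all 15950 genes tested. The median log2FC over the 46 members was 0.39 at 3 days and 0.46 at 6 days, and it was within 0.01 of 0 over all genes tested, and 43 and 40 members had a log2FC above 0. Every ICM library lay above both control libraries in 36 of 46 members at 3 days and in 36 at 6 days, against 33.7% and 36.6% of all genes tested. With no limit on log2FC, 22 members had an adjusted p under 0.05 at 3 days and 28 at 6 days, each of them higher, against 13% and 20.5% of all genes called higher in the same way. At an unadjusted p under 0.05, 0 members were lower at 3 days and 0 at 6 days, and DESeq2 called 0 lower at both times. Both comparisons use the same control libraries, so their lists are not independent of each other.

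**Figure D1:**
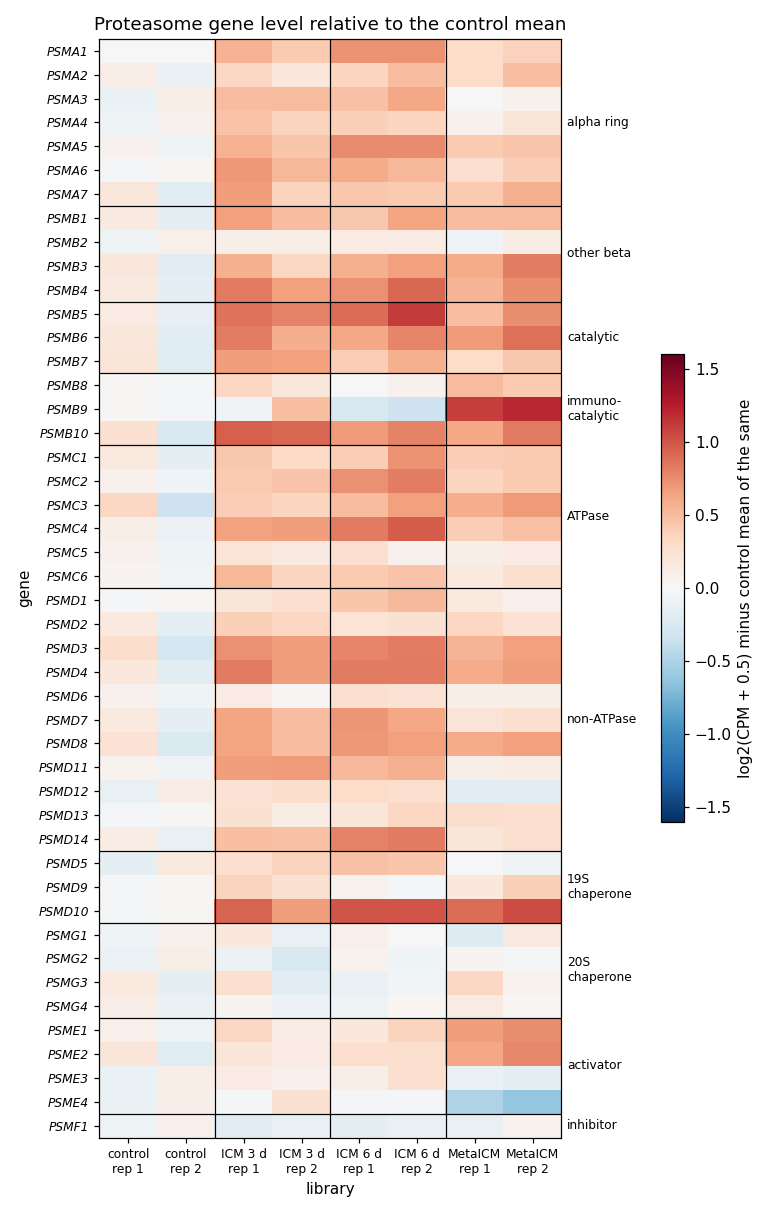
Heat map of the 46 tested members (rows, grouped by role) in the 8 libraries (columns), coloured by log2(CPM + 0.5) minus the mean of the control libraries on that scale. Most core and 19S rows are red in the ICM columns, the PSMG rows are pale throughout, and PSMB9 is darkest in the MetaICM columns.

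Single libraries weigh on these counts. At 3 days, the number of members called higher fell to 4 without control replicate 2 and to 6 without ICM 3 days replicate 1, and at any log2FC it was 6 without the latter. PSMB4, PSMC4, PSMD4 and PSMD11 were among the calls lost without control replicate 2, with log2FC of 0.58, 0.55, 0.56 and 0.60, the last just under the limit. At 6 days, the count stayed within 1.5 times of 15 without each library, but with no limit on log2FC it was 14 without ICM 6 days replicate 2. The calls that held with all libraries under every setting and also without each library were PSMB5 and PSMB10 at 3 days, and PSMA1, PSMA5, PSMB4, PSMB5, PSMC2, PSMC4, PSMD4, PSMD10 and PSMD14 at 6 days.

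All 3 constitutive catalytic subunits were called higher at 3 days, against 8.85% of all genes tested. PSMB5, the chymotrypsin-like subunit (chromosome 14, 23495060 to 23504429 on GRCh37, 4 exons), stood at 53.01 and 44.1 CPM in the 2 control libraries, 88.7 and 83.9 CPM at 3 days, 89.9 and 105 CPM at 6 days and 67.9 and 81.5 CPM in MetaICM. All ICM and MetaICM libraries lay above both control libraries. Its log2FC was 0.83 ± 0.14 (SE) at 3 days and 1.00 ± 0.14 at 6 days, with adjusted p of 0.000854 and 0.000226 by the quasi-likelihood test of edgeR after Benjamini-Hochberg adjustment. PSMB6, the caspase-like subunit, measured 29.98 and 23.2 CPM in the 2 control libraries, 46.8 and 39.7 CPM at 3 days, 40.8 and 45.8 CPM at 6 days and 42.5 and 48.8 CPM in MetaICM, again without overlap between control and any other group. Its log2FC was 0.70 at 3 days and 0.69 at 6 days, both called higher, but without control replicate 2 these were 0.51 and 0.53 and were no longer called, nor was the 3-day value without ICM 3 days replicate 1 (0.56). PSMB7, the trypsin-like subunit, had 28.8 and 21.96 CPM in the 2 control libraries, 40.1 and 39.8 CPM at 3 days, 33.3 and 37.5 CPM at 6 days and 30.96 and 34.2 CPM in MetaICM. It was called higher at 3 days (log2FC 0.65) and passed only the adjusted p at 6 days (log2FC 0.47), and its 3-day call was lost without control replicate 2 (0.45) and without ICM 3 days replicate 1 (0.63). Of its exon bases, 389 overlap LOC100129034, and pairs on both genes were not counted.

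The immunoproteasome subunits did not move alike. PSMB10, the counterpart of PSMB7, measured 17.02 and 12.01 CPM in the 2 control libraries, 28.2 and 27.6 CPM at 3 days, 23.2 and 25.1 CPM at 6 days and 22.2 and 25.8 CPM in MetaICM. Every ICM and MetaICM library was above both control libraries for PSMB10. Its log2FC was 0.93 ± 0.18 (SE) at 3 days, where it had the largest log2FC of the members, and 0.72 ± 0.18 at 6 days. The 6-day call was lost without control replicate 2 (0.51) and without ICM 6 days replicate 2 (0.67, adjusted p over the threshold). PSMB8, the counterpart of PSMB5, had 12.5 and 12.2 CPM in the 2 control libraries, 15.6 and 13.96 CPM at 3 days, 12.4 and 12.97 CPM at 6 days and 17.7 and 16.6 CPM in MetaICM, and it was not called at 3 or 6 days, with 95% intervals of its log2FC from −0.12 to 0.64 and from −0.31 to 0.38. PSMB9, the counterpart of PSMB6, was the least abundant tested member per length in control, at 2.32 and 2.24 CPM in the 2 control libraries, 2.16 and 3.37 CPM at 3 days, 1.83 and 1.701 CPM at 6 days and 5.499 and 5.91 CPM in MetaICM. These levels rest on 27 to 136 counts, and the log2FC intervals of PSMB9 reached from −0.46 to 0.96 at 3 days and from −1.02 to 0.28 at 6 days. PSMB8 and PSMB9 lie in the HLA region of chromosome 6, of which the annotation also holds haplotype copies, and pairs that fitted several copies would not have been counted.

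The immunoproteasome subunits were also set against their constitutive counterparts per length (RPKM, the depth-scaled count per kilobase of exon). Their shares differed between some groups and overlapped between others. PSMB8 stood at 22.5 and 26.3% of PSMB5 in control, 16.8 and 15.9% at 3 days, 13.2 and 11.7% at 6 days and 24.9 and 19.4% in MetaICM. The ICM libraries were therefore lower than both control libraries in this ratio, while the MetaICM libraries overlapped the control range. PSMB9 stood at 6.63 and 8.27% of PSMB6 in control, 3.96 and 7.28% at 3 days, 3.84 and 3.18% at 6 days and 11.1 and 10.4% in MetaICM. PSMB10 stood at 59.6 and 55.2% of PSMB7 in control, 70.99 and 69.9% at 3 days, 70.4 and 67.4% at 6 days and 72.3 and 76.1% in MetaICM. These ratios were not tested.

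**Figure D2:**
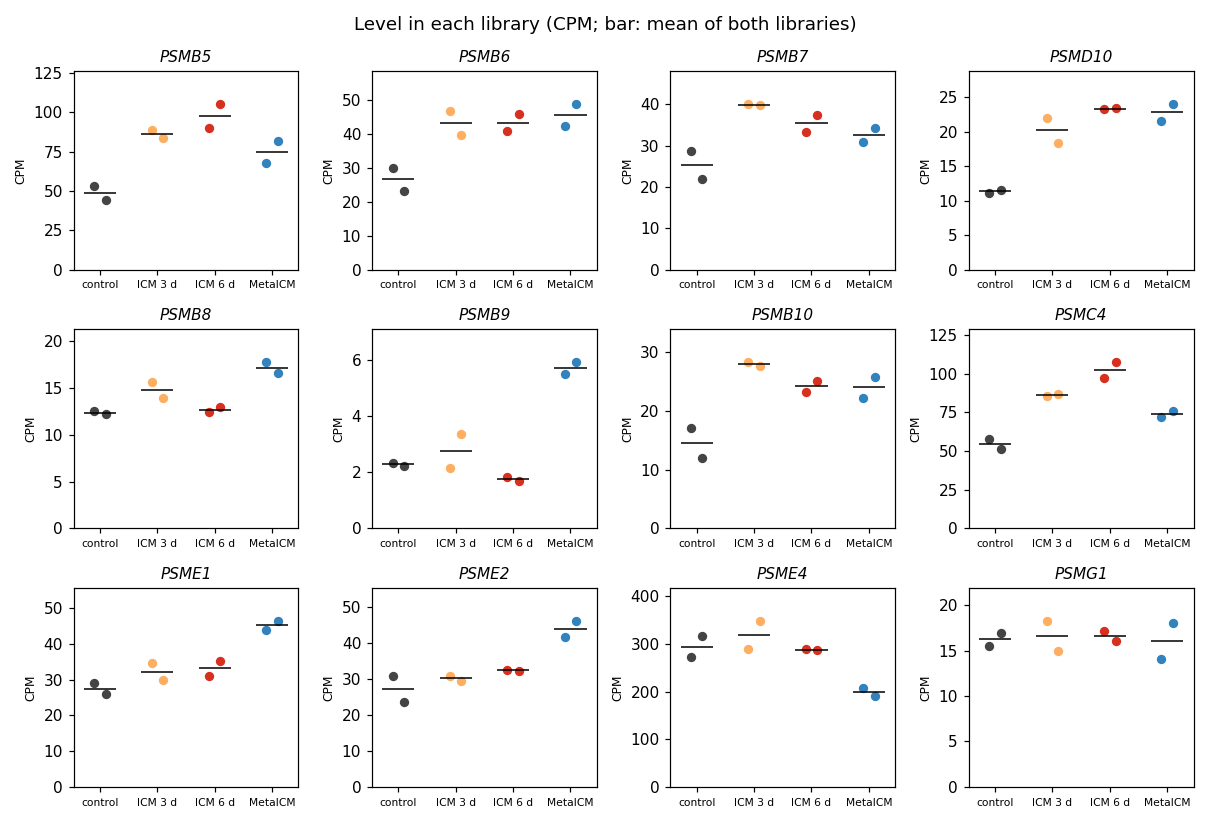
Level in CPM (y axis, from 0) of 12 members in each library, by group (x axis), with a bar at the mean of both libraries. PSMB5 and PSMC4 are highest at 6 days, PSMB9, PSME1 and PSME2 are highest in MetaICM, PSME4 is lowest in MetaICM, and the PSMG1 points of all groups overlap.

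In the rings of the core, the alpha subunits moved together within a narrow range. All 7 tested alpha genes had every ICM library above both control libraries, against 33.7% of all genes tested at 3 days and 36.6% at 6 days. The alpha genes had log2FC from 0.25 to 0.62 at 3 days and from 0.36 to 0.76 at 6 days. Of these genes, 1 was called higher at 3 days (PSMA6, log2FC 0.62) and 2 at 6 days (PSMA1, 0.71, and PSMA5, 0.76). Over all genes tested, 8.85% and 13.3% were called higher. At any size, 6 and 7 alpha genes passed the adjusted p, against 13% and 20.5% of all genes called higher in the same way. PSMA1 measured 75.5 and 74.6 CPM in the 2 control libraries, 111 and 101 CPM at 3 days, 123 and 124 CPM at 6 days and 91.8 and 97.3 CPM in MetaICM. PSMA5 measured 48.4 and 43.9 CPM in the 2 control libraries, 68.2 and 62.8 CPM at 3 days, 78.5 and 78.2 CPM at 6 days and 62.02 and 63.1 CPM in MetaICM. PSMA6 measured 47.2 and 49.7 CPM in the 2 control libraries, 78.9 and 70.4 CPM at 3 days, 73.1 and 70.1 CPM at 6 days and 58.3 and 63.8 CPM in MetaICM, and its 3-day call was lost without control replicate 1 (0.59) or ICM 3 days replicate 1 (0.52). The smallest 6-day differences among the alpha genes were those of PSMA4 (0.36 ± 0.11 SE) and PSMA7 (0.41 ± 0.14 SE), which are over 0 with adjusted p of 0.0286 and 0.034 by the quasi-likelihood test of edgeR after Benjamini-Hochberg adjustment.

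The non-catalytic beta subunits were split. PSMB4, a beta ring subunit without a catalytic site, measured 73.2 and 59.99 CPM in the 2 control libraries, 118 and 104 CPM at 3 days, 110.4 and 126 CPM at 6 days and 97.2 and 112 CPM in MetaICM, with log2FC of 0.74 at 3 days and 0.82 at 6 days, and it was called higher in both. PSMB3 measured 36.2 and 28.3 CPM in the 2 control libraries, 47.7 and 40.3 CPM at 3 days, 47.7 and 50.8 CPM at 6 days and 48.5 and 56.6 CPM in MetaICM. It was called at 6 days (log2FC 0.60) and lay so near the limit that it was not called on thinned counts (0.59), without control replicate 2 (0.44) or without ICM 6 days replicate 2 (0.56). PSMB1 passed the adjusted p at both times (log2FC 0.57 and 0.53) and PSMB2 at neither. PSMB2 measured 51.6 and 57.997 CPM in the 2 control libraries, 58.2 and 58.7 CPM at 3 days, 59.7 and 59.3 CPM at 6 days and 52.5 and 59.7 CPM in MetaICM, and its 6-day interval ran from −0.15 to 0.38.

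In the 19S particle, 4 of 17 ATPase and non-ATPase subunits were called higher at 3 days and 7 at 6 days, against 8.85% and 13.3% of all genes tested. Among the 6 ATPases, PSMC4 had the largest 6-day log2FC, 0.90 ± 0.12 (SE), at 58.01 and 51.1 CPM in the 2 control libraries, 85.5 and 86.6 CPM at 3 days, 97.4 and 107 CPM at 6 days and 71.7 and 75.8 CPM in MetaICM. PSMC2 measured 73.8 and 67.1 CPM in the 2 control libraries, 94.3 and 96.7 CPM at 3 days, 117 and 124 CPM at 6 days and 89.1 and 94.01 CPM in MetaICM and was called at 6 days only (log2FC 0.77). PSMC5 (6-day interval −0.12 to 0.44) was the one ATPase that passed the adjusted p at neither time, and PSMC6 had log2FC of 0.44 and 0.44. PSMC1 and PSMC3 passed the adjusted p at 6 days only, and of the exon bases of PSMC1, 3654 overlap NRDE2, so its count is uncertain.

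Among the 11 non-ATPase subunits, the ubiquitin receptor PSMD4 and the lid deubiquitinase PSMD14 stood out. PSMD4 measured 61.5 and 48.4 CPM in the 2 control libraries, 97.5 and 86.8 CPM at 3 days, 97.04 and 97.5 CPM at 6 days and 82.8 and 87.3 CPM in MetaICM, with log2FC of 0.74 at 3 days and 0.82 at 6 days. PSMD14 measured 79.2 and 67.4 CPM in the 2 control libraries, 102 and 101 CPM at 3 days, 127 and 129.9 CPM at 6 days and 83.7 and 87.4 CPM in MetaICM, with log2FC of 0.47 and 0.80, the latter called higher. The lid subunit PSMD3 measured 84.7 and 57.6 CPM in the 2 control libraries, 116 and 112 CPM at 3 days, 121 and 123 CPM at 6 days and 102 and 109.95 CPM in MetaICM and was called at both times, with log2FC of 0.67 and 0.77. Without control replicate 2 these were 0.41 and 0.53, below the limit, and without ICM 3 days replicate 1 the 3-day adjusted p was over the threshold (log2FC 0.63). The lid subunits PSMD7 (0.65) and PSMD8 (0.66) were called at 6 days, both not without control replicate 2 (0.52 and 0.45), and PSMD11, a lid subunit as well, was called at 3 days (0.67). The most abundant members per length, PSMD2 and PSMD1, were not called. PSMD2, a scaffold subunit of the base, measured 379.9 and 304 CPM in the 2 control libraries, 444 and 427 CPM at 3 days, 396 and 403 CPM at 6 days and 428 and 400.3 CPM in MetaICM with a 6-day interval from −0.06 to 0.50. PSMD6 measured 66.6 and 60.4 CPM in the 2 control libraries, 69.8 and 64.3 CPM at 3 days, 75.6 and 74.4 CPM at 6 days and 68.2 and 67.7 CPM in MetaICM, with a 6-day interval from −0.02 to 0.49. PSMD12 and PSMD13 passed the adjusted p at neither time, and PSMD1 passed it at 6 days.

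Of the 7 genes for assembly chaperones of the 19S base and the 20S core, PSMD10 was called higher in each comparison with control and the other 6 were called in none. Over all genes tested, 8.85% were called higher at 3 days, 13.3% at 6 days and 7.41% in MetaICM, so 1 of 7 is not far from those shares. PSMD10, also known as gankyrin, an assembly chaperone of the 19S base and an oncoprotein, had the largest 6-day log2FC of all members, 1.04 ± 0.15 (SE, adjusted p 0.000301 by the quasi-likelihood test of edgeR after Benjamini-Hochberg adjustment). It measured 11.2 and 11.5 CPM in the 2 control libraries, 22.03 and 18.3 CPM at 3 days, 23.3 and 23.4 CPM at 6 days and 21.5 and 24.02 CPM in MetaICM, and every ICM and MetaICM library stood above both control libraries. Without ICM 3 days replicate 1, its 3-day log2FC was 0.68 and it was no longer called. The other base chaperones, PSMD5 and PSMD9, were not called by the limit on log2FC, with 6-day log2FC of 0.45 ± 0.14 and 0.02 ± 0.14 (SE). The 4 core chaperones PSMG1 to PSMG4, which pair the alpha subunits into a ring, were called in none of the 3 comparisons with control, and the groups overlapped in each. At 6 days, their intervals ran from −0.30 to 0.36 for PSMG1, from −0.33 to 0.32 for PSMG2, from −0.55 to 0.35 for PSMG3 and from −0.40 to 0.32 for PSMG4. PSMG1 measured 15.5 and 16.98 CPM in the 2 control libraries, 18.3 and 14.9 CPM at 3 days, 17.1 and 16.1 CPM at 6 days and 14.1 and 18.03 CPM in MetaICM. PSMG2 measured 18.6 and 21.4 CPM in the 2 control libraries, 18.6 and 16.6 CPM at 3 days, 20.8 and 19.03 CPM at 6 days and 20.5 and 19.4 CPM in MetaICM. Summed over the 4 genes, the level was 54.97 and 55.8 CPM in control and 55.9 and 54.3 CPM at 6 days, while the same sum over the 8 alpha genes was 376 and 368 and 544 and 550.02 CPM.

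The activators, which can cap the core, and the inhibitor were not called at 3 or 6 days of ICM. PSME1 and PSME2 form the 11S cap that interferon raises, PSME3 forms a nuclear cap and PSME4 encodes PA200. At 6 days the intervals of log2FC ran from −0.04 to 0.56 for PSME1, from −0.09 to 0.58 for PSME2, from −0.12 to 0.46 for PSME3 and from −0.29 to 0.22 for PSME4. PSMF1, the inhibitor known as PI31, measured 41.3 and 46.4 CPM in the 2 control libraries, 38.7 and 40.3 CPM at 3 days, 39.1 and 40.1 CPM at 6 days and 40.3 and 45.4 CPM in MetaICM, with a 6-day interval from −0.43 to 0.13. In simulated counts with the spread of these libraries, a 1.5-fold change passed the adjusted p in 26% of genes at 6 days. A 2-fold change passed it in 68%, both with no limit on log2FC. These shares, with 2 libraries per group, are not specific to the activators and the inhibitor, for which recovery was not tested. Each 6-day interval given above for PSME1 to PSME4 and PSMF1 lay inside the limit of 0.6 on log2FC in both directions.

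**Figure D3:**
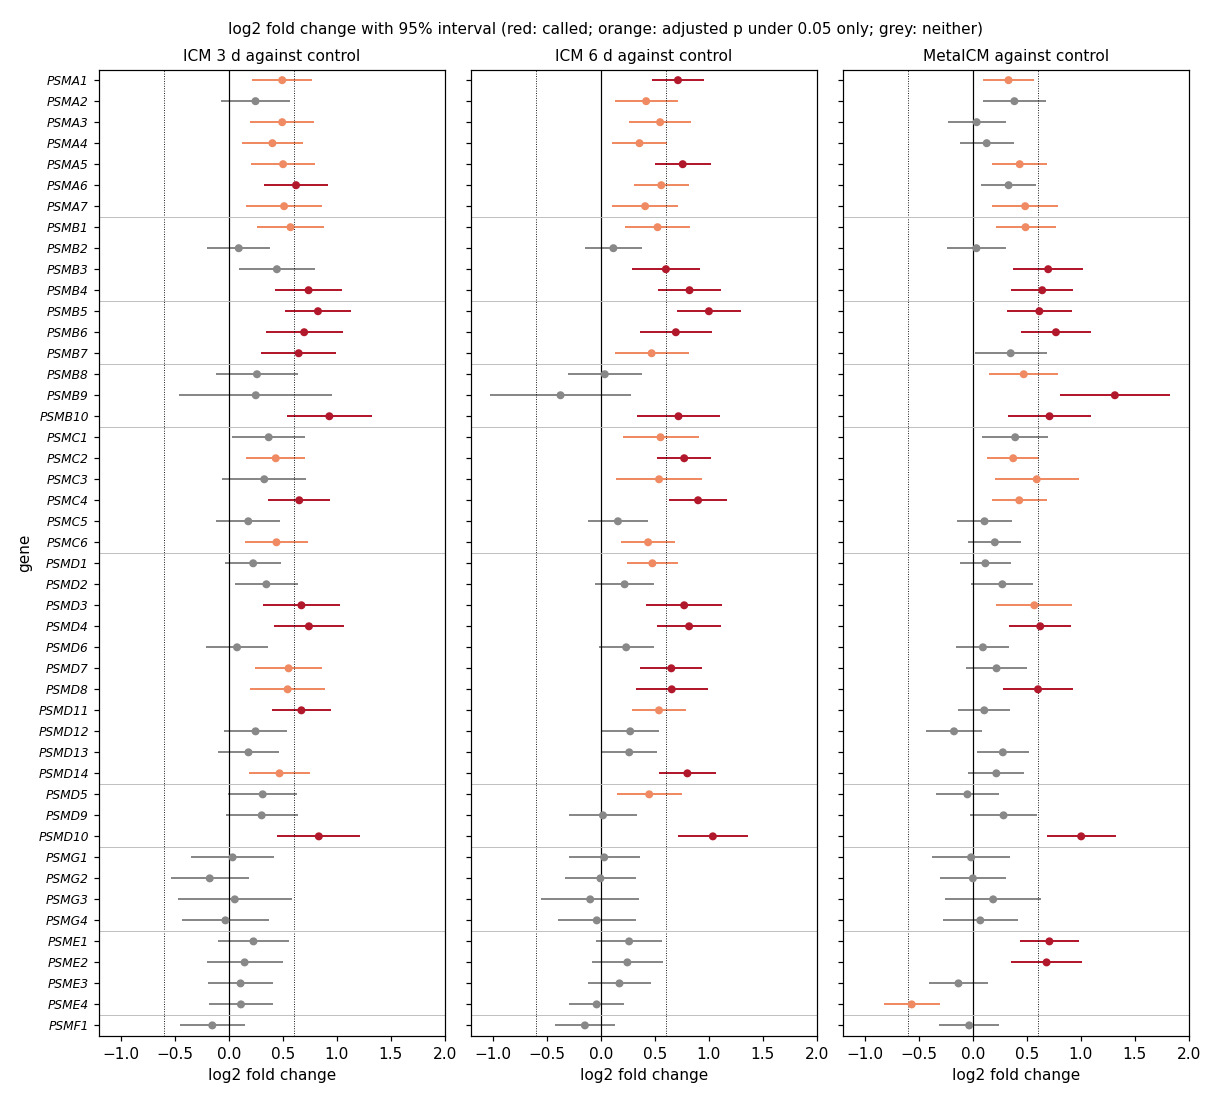
log2FC (x axis) with its 95% interval for each tested member (rows, by role) at 3 days, at 6 days and in MetaICM, each against control. Red marks a call, orange an adjusted p under 0.05 with a smaller log2FC, and the dotted lines the limit of 0.6. No interval of a PSMG gene lies on one side of 0, and PSMD10 and PSMB5 lead at 6 days.

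The time points differed little for these genes. Between 6 and 3 days, 0 of 46 members were called in either direction, against 3.53% higher and 4.54% lower over all 15845 genes tested. With no limit on log2FC, edgeR's adjusted p under 0.05 gave 3 members higher (PSMC2, log2FC 0.33; PSMD1, 0.25; PSMD14, 0.33) and 0 lower, against 9.66% of genes in each direction, and the DESeq2 count was also 3 higher and 0 lower. None of these 3 held without each library in turn, and leaving out ICM 6 days replicate 2 gave 0 higher, leaving out ICM 6 days replicate 1 gave 1 higher, and leaving out ICM 3 days replicate 1 or 2 gave 2 or 1 lower. At an unadjusted p under 0.05, 7 members were higher and 1 lower. With the replicate number as a block, 6 were higher. The median log2FC over the members was 0.06. All 22 members that passed the adjusted p at 3 days passed it at 6 days too, with 6 more at 6 days only (PSMA2, PSMB3, PSMC1, PSMC3, PSMD1 and PSMD5), and both lists share their control libraries.

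MetaICM differed from the control in part of the same genes. Of 46 members, 11 were upregulated and 0 downregulated, against 7.41% and 8.99% of all 15904 genes tested, and with no limit on log2FC 20 were higher and 1 lower (PSME4), against 13% and 14%. At an unadjusted p under 0.05, 1 member was lower, and DESeq2 called 0 lower by the limit of 0.6. Every MetaICM library lay above both control libraries in 35 of 46 members, against 34.7% of all genes. Of the 11, PSMB4, PSMB5, PSMB6, PSMB10, PSMD4 and PSMD10 were also called at both ICM times. PSMB3 and PSMD8 were also called at 6 days, and PSMB9, PSME1 and PSME2 were called in MetaICM and in neither ICM comparison. The number called higher was 4 without control replicate 2 and 2 without MetaICM replicate 2, and PSMB9 and PSMD10 were the calls that held without each library and under every setting. With no limit on log2FC, 2 were left without MetaICM replicate 2 and 10 without MetaICM replicate 1, while the 1 lower became 3 without control replicate 1 and 0 without either MetaICM library. PSMB5 (0.60) and PSMD8 (0.59) fell just short of the limit with upper-quartile factors.

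In MetaICM, the largest log2FC against control were those of PSMB9, the base chaperone PSMD10 (1.00) and the constitutive subunit PSMB6 (0.77). PSMB9 had 5.499 and 5.91 CPM in MetaICM against 2.32 and 2.24 CPM in control, a log2FC of 1.32 ± 0.23 (SE, adjusted p 0.00345 by the quasi-likelihood test of edgeR after Benjamini-Hochberg adjustment). PSME1 had 29.1 and 25.9 CPM in the 2 control libraries, 34.6 and 29.9 CPM at 3 days, 31.003 and 35.2 CPM at 6 days and 43.9 and 46.4 CPM in MetaICM. PSME2 had 30.7 and 23.4 CPM in the 2 control libraries, 30.8 and 29.4 CPM at 3 days, 32.4 and 32.2 CPM at 6 days and 41.5 and 46.05 CPM in MetaICM. Both were highest in the MetaICM libraries, with no overlap with any other group, and their log2FC against control was 0.71 and 0.68. Without MetaICM replicate 2 the adjusted p of PSME1 and PSME2 was over the threshold (log2FC 0.68 and 0.62), and without control replicate 2 the log2FC of PSME2 was 0.51. PSMB8 passed the adjusted p (log2FC 0.47) without being called. PSME4 measured 273 and 316 CPM in the 2 control libraries, 290.4 and 348 CPM at 3 days, 288 and 287 CPM at 6 days and 208 and 190.3 CPM in MetaICM, so its MetaICM libraries lay below all others, with a log2FC of −0.57 ± 0.12 (SE) against control.

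Against 6 days of ICM, MetaICM had 1 of 46 members called higher (PSMB9, log2FC 1.69 ± 0.22 SE, adjusted p 1.3e-06 by the quasi-likelihood test of edgeR after Benjamini-Hochberg adjustment) and 0 lower, against 15.7% and 12% of all 16036 genes tested. With no limit on log2FC, 5 members were higher (PSMB8, 0.43; PSMB9; PSMD9, 0.27; PSME1, 0.45; PSME2, 0.44) and 19 lower, against 27.5% and 26% of all genes. The 19 lower members comprise 5 of 7 tested alpha genes, PSMB5, 3 of 6 ATPases, 7 of 11 non-ATPase genes, PSMD5, PSME3 and PSME4, and 16 of the 19 had passed the adjusted p as higher at 6 days. PSMD14 had the largest of these differences, with a log2FC of −0.58 ± 0.07 (SE), and it passed the limit of 0.6 with upper-quartile factors, with library totals, and without ICM 6 days replicate 1 or MetaICM replicate 2 (−0.61 in each of these 2). The 4 core chaperones were not among those that passed. The comparison of MetaICM with 6 days shares libraries with both comparisons with control.

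Per length, the members spread over a wide range. In control, PSMD2 was highest at 113 ± 17.8 RPKM (SD, n = 2), followed by PSMD1 at 88.7 ± 1.41 and PSMB4 at 72.6 ± 10.2, and among tested members PSMB9 was lowest at 2.24 ± 0.0579. The 14 constitutive core genes had a median of 34.9 RPKM in control, 57.6 at 6 days and 48.4 in MetaICM, and the 17 ATPase and non-ATPase genes 33.1, 51.7 and 40.2. The 4 PSMG genes had a median of 6.45 RPKM in control and 6.40 at 6 days. In order of level among the 48 members, PSMB5 stood at rank 17 in control and 10 at 6 days, and PSME4 at rank 11 in control and 27 in MetaICM.

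**Figure D4:**
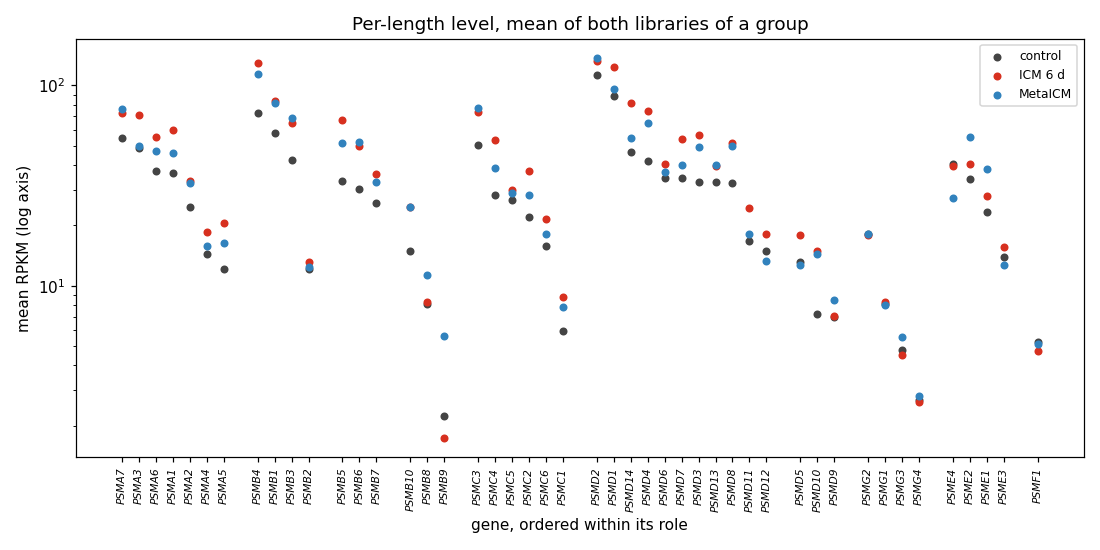
Mean RPKM (log axis) of each tested member in control, at 6 days of ICM and in MetaICM, with genes ordered within their role. Most core and 19S genes have the 6-day point above the control point, the points of each PSMG gene lie close together, and PSMB9 and PSMG4 are the lowest in control and at 6 days.

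Genes that work with the proteasome were examined as lists drawn up with earlier results of these data known. Of 23 partners (chaperones, receptors, deubiquitinases and regulators), 4 rose at 6 days and 0 fell (3 lower at an unadjusted p under 0.05), against 13.3% and 17.2% of all genes tested, so the share that rose is near that of all genes. With no limit on log2FC, 7 partners passed the adjusted p as higher and 2 as lower, against 20.5% and 21.7% of all genes. The 4 that rose were ZFAND5, an activator of the 26S particle (log2FC 1.03), PITHD1 (1.03), the ubiquitin-directed protease DDI1 (0.94) and TXNL1, a redox protein bound to the 19S particle (0.66, and 0.58 without control replicate 1, below the limit). ZFAND5 measured 283 and 287 CPM in the 2 control libraries, 560.5 and 505 CPM at 3 days, 589 and 578 CPM at 6 days and 453 and 433 CPM in MetaICM. In MetaICM, 1 partner (ZFAND5, 0.63) was called higher and 4 lower than in control, against 7.41% and 8.99% of all genes, and 0 were higher (2 with no limit on log2FC) and 4 lower than at 6 days, against 15.7% and 12%. DDI1 was lower in both, at 4.997 and 5.303 CPM in the 2 control libraries, 7.68 and 12.7 CPM at 3 days, 10.2 and 9.57 CPM at 6 days and 1.98 and 1.48 CPM in MetaICM, with log2FC of −1.58 against control and −2.52 against 6 days. These DDI1 levels rest on 34 to 189 counts, taken without regard to strand. Overlap of DDI1 with other genes was not examined. The other partners lower than in control, chosen after their values were seen, were the deubiquitinases USP14 (−0.74, and −0.47 without control replicate 2) and UCHL5 (−0.68) and the protease DDI2 (−0.64), and neither UCHL5 nor DDI2 was called without MetaICM replicate 1 or 2. Those lower than at 6 days were AKIRIN2 (−0.88), PITHD1 (−0.66) and NGLY1 (−0.63, and −0.56 and −0.58 without ICM 6 days replicate 1 and MetaICM replicate 2). NFE2L1, which encodes NRF1, had 241 and 161 CPM in the 2 control libraries, 218 and 192 CPM at 3 days, 255 and 207 CPM at 6 days and 262 and 232 CPM in MetaICM, and its log2FC of 0.19 ± 0.17 (SE) at 6 days did not pass. Neither did NFE2L2, the gene of NRF2 (0.15 ± 0.14), nor POMP, the maturation chaperone of the core (0.32 ± 0.13). RNA levels do not report the processing of NRF1 protein, which was not measured.

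Of 14 ubiquitin and unfoldase genes, 5 rose at 6 days and 0 fell by the same call, against the same 13.3% and 17.2% of all genes. With no limit on log2FC, 9 of them passed the adjusted p as higher and 1 as lower, against 20.5% and 21.7% of all genes. VCP, the unfoldase that hands substrates to the proteasome, had a log2FC of 1.00, its cofactor UFD1 0.92, and the ubiquitin gene UBB 0.72, which was 0.49 without control replicate 2. Of 14 genes of antigen presentation and interferon signalling, 1 rose at 6 days and 4 fell, against 13.3% and 17.2% of all genes, and among those that fell were HLA-B (−0.96), B2M (−0.75) and the peptidase ERAP1 (−0.69). In MetaICM against 6 days, 8 of the same 14 rose and 0 fell, against 15.7% and 12% of all genes. With no limit on log2FC, 11 of these 14 passed the adjusted p as higher and 2 as lower, against 27.5% and 26% of all genes. TAP1, the peptide transporter gene whose start lies 221 bases from that of PSMB9 on the other strand, had 23.7 and 16.98 CPM in the 2 control libraries, 30.8 and 23.4 CPM at 3 days, 23.2 and 19.5 CPM at 6 days and 44.1 and 38.3 CPM in MetaICM, with a log2FC of 1.00 in MetaICM against control and 0.95 against 6 days. TAP1 too lies in the HLA region with its haplotype copies. An opposite-strand start within 1000 bases was found for 14 of 48 members (29.2%) and for 17.2% of all genes. In the annotation, 17 members have named pseudogenes, 44 in all with 13 of PSMC1 and 6 of PSME2, and pairs that fit a gene and its copy equally well were not counted.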

How the data were processed

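The 8 factory RNA-Seq libraries of IMR90 were analysed from the counts deposited by the authors, read pairs per RefSeq gene on GRCh37, not normalized. Per the file headers, featureCounts 1.6.3 counted pairs without regard to strand, with both ends mapped, without chimeric pairs, and with pairs on several places or genes left out; alignment was with STAR 2.6.0c per the labels. The study's own nascent RNA analysis used intronic counts, not analysed here, and exonic counts of poly(A) RNA can include mature RNA.

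Conditions were compared with 2 libraries each in edgeR 4.0.16 (R 4.3.3), with TMM factors, filterByExpr at a count minimum of 10, the quasi-likelihood test and Benjamini-Hochberg adjustment over all genes tested. A call needed an adjusted p under 0.05 and an absolute log2FC over 0.6. The SE is the log2FC divided by the root of the F statistic, and 95% intervals use it. CPM uses TMM over all 8 libraries, and RPKM divides by exon bases on the primary chromosomes. The fit was tested on simulated data with 200 changed genes. At 3 days, 22% of those changed 1.5-fold and 71% of those changed 2-fold passed the adjusted p, with no limit on log2FC.

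Members, lists and motifs were chosen with earlier results of these data known. Named genes are the members called against control, those of the catalytic, activator, inhibitor and core chaperone roles, the extremes at 6 days within other roles and, per list, at most 4 called genes with NFE2L1, NFE2L2, POMP and TAP1; other genes were named after their values were seen. The values of some list genes are not reported here. Alternatives were DESeq2 1.42.0, other factors and filters, all 8 libraries in 1 fit, a replicate block, counts thinned to 12095123 per library, an adjusted p under 0.01 and each library left out. Depth was 12095123 to 23166405 pairs per library.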

Additional observations from a re-analysis of the deposited data

Results flagged for a closer look

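The difference between 6 and 3 days of ICM was tested directly with edgeR's quasi-likelihood test, and 3 of 46 members passed an adjusted p under 0.05, all below the limit of 0.6 on log2FC. The log2FC of 6 days against 3 days was 0.33 for PSMC2, 0.25 for PSMD1 and 0.33 for PSMD14, and every 6-day library lay above both 3-day libraries in each. In the same test 9.66% of all genes were higher, so 3 of 46 members (6.52%) is not above that background, and none of the 3 passed without each library in turn.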

How the results depend on the processing

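The direction of the median log2FC of the members was the same under every alternative in all 5 comparisons. With library totals it was 0.46 at 3 days and 0.50 at 6 days, and MetaICM against 6 days had 1 member lower with library totals and 1 with upper-quartile factors. With no limit on log2FC, the members higher numbered 22 at 3 days, 28 at 6 days, 3 at 6 against 3 days, 20 in MetaICM against control and 5 in MetaICM against 6 days, and those lower 1 and 19 in the last 2. Leaving out 1 library, where the lone library is assumed to vary like the others, gave 4 to 16 members higher at 3 days, 2 to 15 in MetaICM against control, and 0 to 1 lower in 6 against 3 days, in MetaICM against control and in MetaICM against 6 days. The median log2FC then ran from 0.32 to 0.50 at 3 days, 0.40 to 0.51 at 6 days, 0.014 to 0.13 at 6 against 3 days, 0.29 to 0.42 in MetaICM against control and −0.17 to −0.028 in MetaICM against 6 days.

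Among the genes named, signs turned only for some that were not called. On thinned counts, log2FC was −0.058 for PSMG3 and 0.021 for PSMG4 at 3 days, −0.039 for PSMB8 and 0.017 for PSMG4 at 6 days, and 0.022 for PSMG1 in MetaICM against control. With library totals, PSMG4 was 0.045 at 3 days and 0.0082 at 6 days, PSME4 0.0030 and PSMG2 0.039 at 6 days, and PSMG1 0.0089 in MetaICM. PSMG2 at 6 days was 0.0027 with upper-quartile factors, 0.022 without a filter and 0.00095 with all libraries in 1 fit, and in MetaICM −0.0036 with DESeq2, −0.0026 with its size factors and −0.020 with upper-quartile factors. PSMG1 in MetaICM was 0.013 without a filter. Without 1 library, the 3-day log2FC ran from −0.060 to 0.55 for PSMB9, −0.049 to 0.36 for PSME2, −0.0037 to 0.23 for PSME4, −0.14 to 0.19 for PSMG1, −0.23 to 0.28 for PSMG3, −0.15 to 0.086 for PSMG4 and −0.011 to 0.15 for PSMD6. At 6 days it ran from −0.15 to 0.077 for PSME4, −0.042 to 0.099 for PSMG1, −0.11 to 0.10 for PSMG2, −0.24 to 0.079 for PSMG3, −0.13 to 0.071 for PSMG4, −0.061 to 0.51 for NFE2L1, −0.015 to 0.34 for NFE2L2 and −0.15 to 0.32 for TAP1. In MetaICM against control it ran from −0.11 to 0.074 for PSMF1, −0.20 to 0.17 for PSMG1, −0.097 to 0.10 for PSMG2, −0.027 to 0.19 for PSMG4 and −0.049 to 0.15 for PSMB2. The cause of these turns was not tested.

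The labels number the libraries of each group 1 and 2 without saying what the number stands for. Deviations of same-numbered libraries correlated at 0.23, 0.066, 0.11, −0.040 and 0.034 in the 5 comparisons, with 2 pairs each, so the pairing was not used. With the replicate block, 11, 15, 0, 12 and 1 members were called higher and 0 lower.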
